A study of Zea mays with 4 samples.

Results

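Long stretches of the maize genome in which none of 4 transcription factors had a listed DNA-binding peak were examined. They were found by pooling the summits of all 4 peak lists on chromosomes 1 to 10, sorting them, and keeping each interval of 40000 bp or more between adjacent summits. Of 394352 such intervals, 2177 were kept, a share of 0.552%. The intervals were chosen by the measured summit positions themselves, so their number, length and emptiness are given as descriptions and no p-value is attached to any of them.

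The peaks came from DNA affinity purification sequencing (DAP-seq), an assay that mixes purified genomic DNA with a Halo-tagged protein translated in wheat germ extract and fixed to magnetic beads, then sequences what the beads retain. The 4 proteins were THX20 (Zm00001d017420), OBF4 (Zm00001d012553), CPP2 (Zm00001d031008) and C3H23 (Zm00001d008323), which the submitters place downstream of the endosperm regulators ZmNAC128 and ZmNAC130. All libraries shared the same source of DNA, B73 inbred leaves sampled at 14 DAG, and each factor had 1 library, so nothing below has a replicate check. The lists held 75227 (C3H23), 163762 (CPP2), 50578 (OBF4) and 104795 (THX20) peaks on the 10 chromosomes. The number of reads behind them is unknown.

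By their names, C3H23 is a CCCH zinc finger protein, CPP2 belongs to the cysteine-rich CPP family, OBF4 is a bZIP protein of the ocs-element binding group, and THX20 is a trihelix protein. Each class binds a short sequence of its own. Purified plant DNA keeps its methylation, and some plant factors bind methylated sites poorly, so a DAP-seq list reflects both sequence and methylation. Most of the maize genome consists of transposable elements in many similar copies, and a short read that matches several copies cannot be placed with certainty. An interval free of peaks is therefore an interval in which no peak was listed. The lists had also been through the removal of blacklisted regions, going by the deposited file names, and the part of that removal and of read placement in the results below was not tested.

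Pooled summits were close together over most of the genome. There were 187 of them per Mb, with a mean spacing of 5.34 kb and a median of 2.44 kb. The 2177 long intervals had a median length of 47.6 kb, with quartiles at 43.0 and 56.7 kb, and together covered 127 Mb, or 6.04% of the chromosomes as measured up to the last peak. The 3 shortest that were kept spanned 40007, 40010 and 40012 bp. The 3 longest that were left out spanned 39999, 39997 and 39991 bp, so the limit cuts through a continuous range of lengths.

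Independent uniform placement of the same number of summits on each chromosome would give 223 intervals of 40 kb or more, by a closed formula. The observed number was 9.78 times as large. Part of this ratio goes with the grouping of summits: when summits within 1 kb of each other were treated as 1 cluster, the formula gave 926 intervals and the ratio was 2.35. Formulas that used the local density gave 345 intervals with bins of 5 Mb (ratio 6.31) and 456 with bins of 1 Mb (ratio 4.78). The long intervals themselves lower the density of the bins they lie in.

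The excess grew with length. Of the 426 intervals of 60 kb or more, the formula for joined clusters accounted for 51.6, and of the 176 of 80 kb or more it accounted for 2.89. For 100 kb or more, 109 intervals were found and the same formula gave 0.162. The size of the excess depends on the formula. With bins of 1 Mb the formula gave 8.07 at 100 kb or more. That ratio rose from 4.78 at 40 kb to 9.42 at 60 kb and 13.5 at 100 kb. Under uniform placement the chance of reaching a further 10 kb is nearly the same at every length, 15.4 to 15.5%. In the lists it rose from 28.8% of intervals at 10 kb (95% Wilson interval 28.5 to 29.2%) to 40.8% at 40 kb (38.7 to 42.9%) and 60.8% at 60 kb (56.1 to 65.3%). Such intervals, like all others below, cover counting error only.

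**Figure D1:**
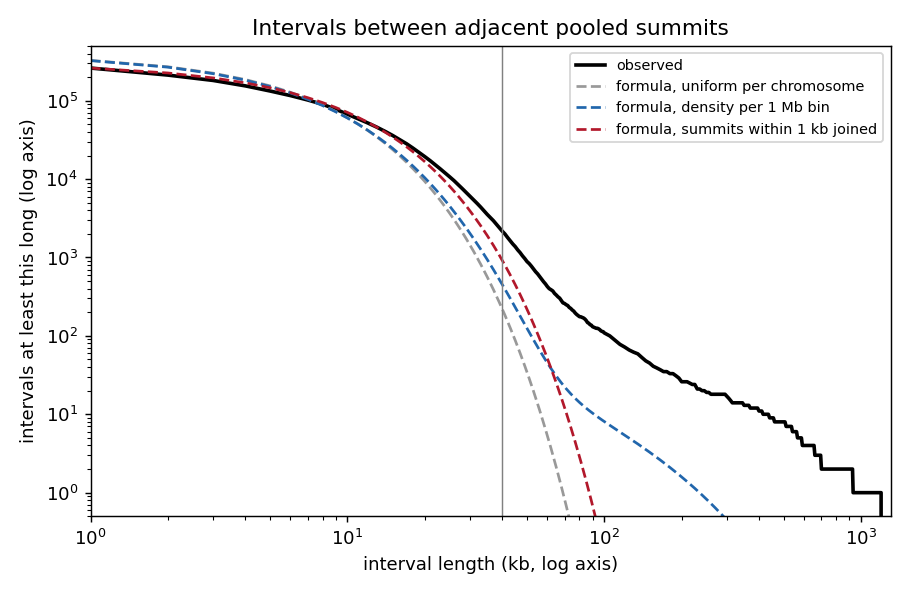
Number of intervals between adjacent pooled summits that are at least as long as the value on the horizontal axis (both axes logarithmic), observed (black) and from 3 closed formulas (dashed); the vertical line marks 40 kb. The observed curve leaves the formulas before 40 kb and ends at 1196 kb, with 109 intervals of 100 kb or more.

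The intervals thus held many that lay just past the limit and few that were very long. Those under 60 kb numbered 1751, or 80.4% of the total, and supplied 64.6% of the peak-free length. Another 317 were from 60 to under 100 kb. The 109 intervals of 100 kb or more made up 5.01% of the number and 17.4% of the length, and the 10 longest alone supplied 5.17% of the length.

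The longest interval lay on chromosome 6 between the summits at 11535259 and 12730917 and spanned 1196 kb. The coordinates are those of the deposited lists, counted from 1, and their genome build is not given in the sources used here. CPP2 peaks closed it on both sides, with signals of 29 and 17 on the authors' scale, below the CPP2 median of 41. The distance between the nearest summits of a single list across this interval was 1229 kb for C3H23, 1196 kb for CPP2, 2940 kb for OBF4 and 1247 kb for THX20. All 4 libraries thus broke off and resumed close to the same places, except OBF4, whose list resumed much later.

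The 3rd and 4th longest intervals lay beside it. They ran from 13682504 to 14382330 (700 kb) and from 12790604 to 13446504 (656 kb) on chromosome 6. Within the 2.85 Mb from the start of the first to the end of the last of these 3, 89.6% of the sequence lay inside them. Between them stood an island of 59.7 kb with 11 peaks and one of 236 kb with 32 peaks, which itself held 1 further long interval. The peak density inside these islands was 168 and 131 per Mb, against the chromosome's mean of 183. Neither island held an OBF4 peak, so the OBF4 interval of 2940 kb bridged the whole block. The short arm of chromosome 6 carries the nucleolus organizer, the tandem array of ribosomal RNA genes; no annotation of the lists' build was used here, so the block was not placed against it.

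The second longest interval lay on chromosome 9 from 74991603 to 75920275 and spanned 929 kb. Its own-list distances were 961 kb for C3H23, 938 kb for CPP2, 970 kb for OBF4 and 936 kb for THX20. No list's own distance was much longer than the pooled interval. In the 100 kb before the interval there were 6 C3H23, 3 CPP2, 4 OBF4 and 8 THX20 peaks, and in the 100 kb after it 5, 10, 3 and 8.

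The remaining 6 of the 10 longest were spread over 5 chromosomes. On chromosome 1 an interval of 587 kb ran from 250624176 to 251211434, with THX20 peaks at both ends. Chromosome 4 had one of 565 kb from 1860780 to 2425426, its midpoint at 0.868% of the chromosome's length, and one of 539 kb from 229343134 to 229882391. A further chromosome 6 interval of 509 kb ran from 102265777 to 102774386. Chromosome 2 had 458 kb free from 227612615 to 228070300, closed on its right by a CPP2 peak with a signal of 180. Chromosome 8 had 438 kb free from 31704506 to 32142577, where the own-list distances of the 4 factors lay between 443 and 451 kb. The longest interval of the other chromosomes was 398 kb on chromosome 3 (86308504 to 86706098), 368 kb on chromosome 5 (123946266 to 124313868), 308 kb on chromosome 7 (58509389 to 58817022) and 196 kb on chromosome 10 (50031102 to 50227073).

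To see whether the emptiness of such stretches is shared by a list that had no part in choosing them, long intervals were taken from 3 lists and the peaks of the 4th were counted inside. Every list was sparser there than on the chromosomes as a whole, and the more so the longer the interval. Intervals under 40 kb were not counted in this way, so how sparse a list is in shorter intervals is not shown. In the 2477 intervals from 40 to under 60 kb that were free of the other 3 lists, C3H23 had 17.5 peaks per Mb against its mean of 35.7, a ratio of 0.489 (95% Poisson interval 0.468 to 0.511). In the intervals left by the other lists, THX20 stood at 0.689 (0.671 to 0.708). OBF4 stood at 0.720 (0.689 to 0.751) and CPP2 at 0.895 (0.883 to 0.908). These intervals are not the same for each factor, since a pool without CPP2 has many more of them (5899 from 40 to under 60 kb).

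In intervals of 200 kb or more the 4 lists came together. C3H23 had 16 peaks in 26 such intervals, where its mean density would give 401, a ratio of 0.0399 (0.0228 to 0.0648). OBF4 had 11 peaks in 27 intervals against 274 (ratio 0.0401, 0.0200 to 0.0718). THX20 had 34 in 32 intervals against 623 (0.0546, 0.0378 to 0.0763), and CPP2 had 56 in 31 intervals against 970 (0.0577, 0.0436 to 0.0750). From 100 to under 200 kb the lists stood apart, from 0.109 (0.0801 to 0.145) for C3H23 to 0.544 (0.517 to 0.572) for CPP2. The libraries share their DNA and their processing, so an emptiness that belongs to the DNA and one that belongs to the processing cannot be told apart here.

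**Figure D2:**
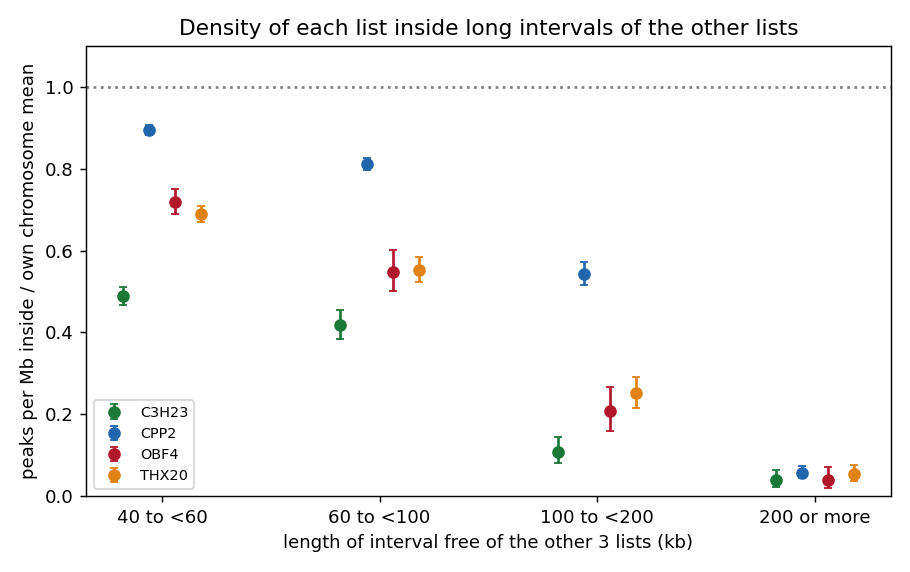
Density of peaks of each list inside intervals that are free of the other 3 lists, divided by that list's mean on the 10 chromosomes, by interval length in kb; bars are 95% Poisson intervals (counting error only). All 4 lists fall from 0.489 to 0.895 in the shortest class to 0.0399 to 0.0577 at 200 kb or more.

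Around the pooled intervals each list had its own, longer, peak-free distance, which by construction spans at least the pooled interval. Its median was 125 kb for OBF4, 106 kb for C3H23, 88.2 kb for THX20 and 64.0 kb for CPP2, the order of the list lengths, shortest list first. Taken singly, the lists departed far less from uniform placement at 40 kb than their pool. The observed number of own-list intervals of 40 kb or more, divided by the closed formula, was 0.946 for OBF4, 1.005 for C3H23, 1.17 for THX20 and 1.51 for CPP2. These lists have mean spacings of 12.9 to 41.6 kb, so 40 kb is a far shorter distance for them than for the pool. At 100 kb or more CPP2 had 490 intervals where the formula gave 69.1, THX20 2455 against 728, C3H23 3714 against 2120 and OBF4 5245 against 4581.

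The surroundings of the long intervals were then compared with those of other intervals. A window that starts at a summit holds more peaks than an average window, because summits are grouped, so the ends of all intervals are the reference. In the first 10 kb outward from a flanking summit, that summit left out, the pooled density was 204 peaks per Mb beside the long intervals. It was 220 per Mb beside intervals from 10 to under 40 kb and 242 per Mb beside all intervals. From 190 to 200 kb outward the values were 174, 187 and 192 per Mb. Some windows beside the long intervals meet another long interval. With those left out, the density was 206 per Mb in the first 10 kb and 186 per Mb from 190 to 200 kb. The reference values were not trimmed in this way. The sequence next to the long intervals was thus somewhat poorer in peaks than that next to intervals in general. Further out, the like values were 174 per Mb beside the long intervals and 187 per Mb beside intervals from 10 to under 40 kb. The trimmed 186 per Mb has no trimmed reference to be set against.

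Beside the 109 intervals of 100 kb or more, the first 10 kb outward held 234 peaks per Mb, or 1.25 times the chromosome mean (95% Poisson interval 1.15 to 1.37), a range that includes the 1.29 of all intervals. Of these 109, 27 (24.8%) had peaks of all 4 factors within 50 kb on both sides. Independent placement of each list at its mean density would give 27.3% by formula. The formula leaves out the grouping of summits, and this share was not counted beside other intervals. The distance from a flanking summit to the next summit outward had a median of 3.17 kb for long intervals. It was 2.90 kb at the ends of intervals from 10 to under 40 kb and 2.44 kb over all intervals. Beside the intervals of 100 kb or more this median was 2.51 kb.

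**Figure D3:**
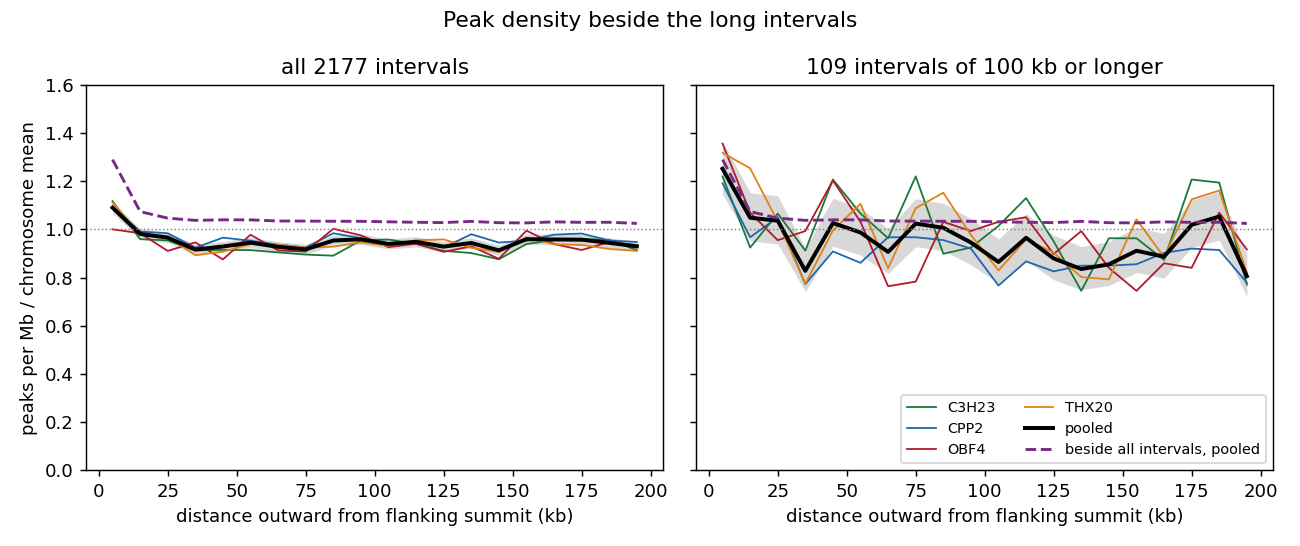
Peaks per Mb outside the long intervals, divided by the mean of the 10 chromosomes, in windows of 10 kb by distance in kb from the flanking summit, for all 2177 intervals (left) and the 109 of 100 kb or more (right); solid coloured lines are single lists, black is the pool with its 95% Poisson interval in grey, and the dashed line is the pool beside the ends of all intervals. The black line starts at 1.09 on the left and 1.25 on the right, and the dashed line at 1.29.

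The intervals were unevenly placed along chromosomes. The outer 10% of chromosome length at either end held 543 of them, or 1.29 per Mb, and the central 20% held 345, or 0.819 per Mb. The ratio of central to outer density was 0.635 (95% exact binomial interval 0.554 to 0.728). It was below 1 on 10 of 10 chromosomes, from 0.432 on chromosome 2 to 0.853 on chromosome 7. Taken singly, the interval lay below 1 on chromosomes 2, 3 and 5 and reached past 1 on the others. The peaks themselves were denser in the middle, and the ratio to a formula with the local density ran the other way. In the 40 to 50% and 50 to 60% stretches of chromosome length, a formula with each stretch's own density gave 8.43 and 15.8 intervals. There 164 and 181 were found, ratios of 19.4 (16.6 to 22.7) and 11.4 (9.83 to 13.2). The highest ratio was 20.2 (17.3 to 23.3) from 30 to 40%, with 180 found against 8.93. In the first 10% the ratio was 5.41 (4.76 to 6.12). In the last 10% the formula gave 58.9 where 290 were found, a ratio of 4.93 (4.38 to 5.53). Long intervals were fewer in the middle of chromosomes, and the ratio to the formula was higher there. Where peaks are denser, 40 kb spans more mean spacings. Over all chromosomes the ratio to uniform placement also rose with the limit, from 4.19 at 30 kb to 25.8 at 50 kb. The ratios of dense and sparse stretches therefore cannot show where the intervals are in greater excess.

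Position differed by length class as a description. Intervals from 60 to under 100 kb had a central to outer ratio of 0.344 (0.224 to 0.515), and those under 60 kb one of 0.685 (0.588 to 0.797). For the intervals of 100 kb or more, 23 were central and 25 outer, a ratio of 0.920 (0.499 to 1.69), so no preference was detectable at this number. The difference between the classes was not tested.

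Whole chromosomes differed little. The number of long intervals per Mb ran from 0.861 on chromosome 7 to 1.16 on chromosome 6. The share of the chromosome inside them ran from 4.91% on chromosomes 7 and 10 to 7.83% on chromosome 6. Without the block of 3 described above, the chromosome 6 share was 6.36%, below the 6.77% of chromosome 2 and the 6.70% of chromosome 4. The median length lay between 46.6 and 48.8 kb on every chromosome. Intervals of 100 kb or more numbered 19 on chromosome 4, 16 on chromosome 2, and 5 on chromosome 10. The stretch before the first summit, which is not an interval between summits, was at most 39.0 kb on any chromosome.

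**Figure D4:**
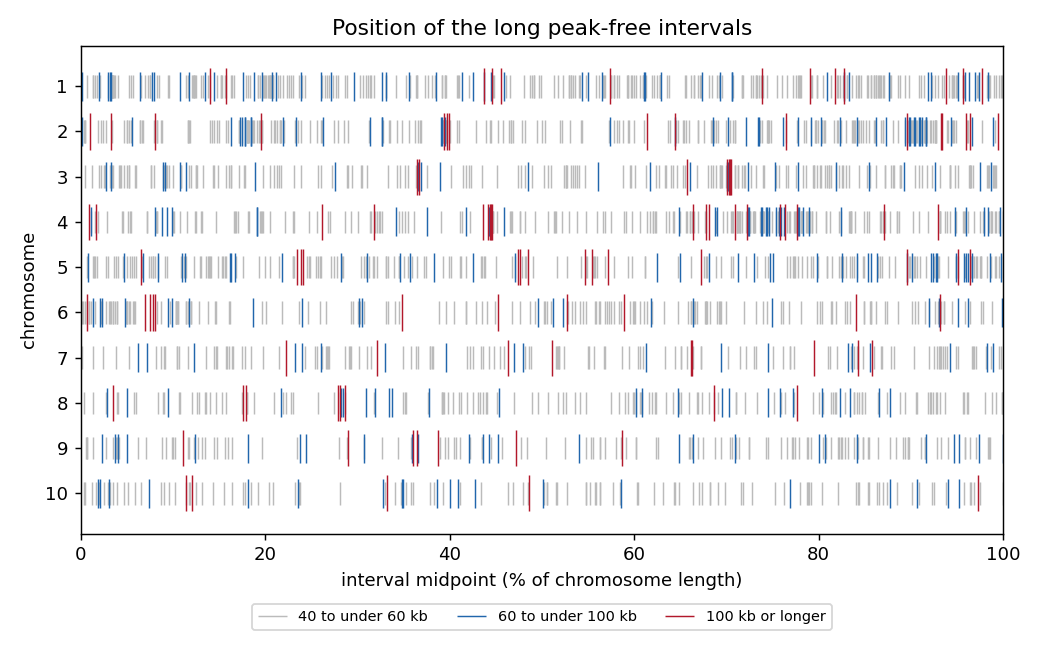
Midpoints of the 2177 long intervals along the 10 chromosomes, in percent of chromosome length, coloured by length class. The block on chromosome 6 stands at 6.97 to 8.06%, and 543 intervals lie in the outer 10% at either end against 345 in the central 20%.

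The intervals also stood near each other. A run was taken as at least 2 long intervals with no more than 40 kb between the end summit of one and the start summit of the next. There were 154 runs with 328 of the intervals, or 15.1% (95% Wilson interval 13.6 to 16.6%). The 174 neighbouring pairs within runs were 1.85 times the 94.2 that independent placement of the intervals on each chromosome would give. The excess was uneven: 34 pairs against 12.3 on chromosome 4, 34 against 13.2 on chromosome 2 and 22 against 9.78 on chromosome 6, but 18 against 15.3 on chromosome 1 and 4 against 5.55 on chromosome 7. Runs took in 18.0% of the outer intervals and 9.57% of the central ones, and 23.9% of those of 100 kb or more. The ratio of pairs to independent placement was 2.31 with at most 20 kb between intervals and 1.46 with at most 100 kb.

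The largest run had 5 intervals and lay on chromosome 5 from 216125220 to 216406361. Its intervals spanned 51.4, 45.0, 48.4, 69.7 and 51.5 kb, and only 6 peaks broke up 281 kb. The next had 4 intervals on chromosome 5 from 207496106 to 207834514, with 24 peaks in 338 kb. A run of 3 on chromosome 3 from 86126042 to 86706098 ended in the 398 kb interval named above and held 25 peaks in 580 kb. On chromosome 8 a run of 3 from 32332060 to 32650099 had 4 peaks in 318 kb, and on chromosome 2 one from 95966359 to 96282145 had 10 peaks in 316 kb.

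In 25 places a single summit separated a pair of long intervals. These lone peaks belonged to CPP2 in 17 places, to THX20 in 7 and to C3H23 in 1, and none belonged to OBF4. The list shares were 41.5% (CPP2), 26.6% (THX20), 19.1% (C3H23) and 12.8% (OBF4). The counts were not tested against these shares, and 25 places are few. The other 149 islands within runs held 2 to 19 peaks, with a median of 5 peaks in 15.8 kb.

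Over larger distances, bins of 5 Mb held a median of 5 long intervals and at most 23. The fullest bin, on chromosome 2 from 220000001 to 225000000, had 23 long intervals, 7 of them of 60 kb or more and none of 100 kb or more. All 4 lists were thin there: C3H23 had 16.6 peaks per Mb (median of all bins 34.8), CPP2 50.6 (78), OBF4 14.8 (23.6) and THX20 22.4 (48.1). Even outside the long intervals that bin had 141 pooled peaks per Mb, against a median of 194 per Mb outside the long intervals of all bins. The bin on chromosome 4 from 105000001 to 110000000 was of another kind. It had 6 long intervals, all of 60 kb or more and 4 of them of 100 kb or more, and 20.5% of it lay inside them. Its peak density was 204 per Mb in the whole bin and 257 outside the intervals, above both medians (184 and 194). Long intervals thus occurred both in stretches where all 4 lists were sparse and as breaks in stretches that were dense.

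The peaks at the ends of the intervals were then compared with the lists they came from. There were 4329 of them, since some closed an interval on either side. CPP2 supplied 46.6% of the flanking peaks (95% Wilson interval 45.1 to 48.1%) and 41.5% of all peaks, and OBF4 14.7% (13.7 to 15.8%) and 12.8%. THX20 supplied 23.3% (22.1 to 24.6%) of the flanking peaks and 26.6% of all, and C3H23 15.4% (14.3 to 16.5%) and 19.1%.

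These shares were not particular to long intervals. At the ends of intervals from 20 to under 40 kb CPP2 already had 46.4%, THX20 23.3%, C3H23 15.7% and OBF4 14.6%. At the ends of intervals under 1 kb, OBF4 had 7.71% and C3H23 22.0%. The point values were again different at the far end of the range, though each factor's share of all peaks lay inside its Wilson interval there. Those shares of all peaks were 41.5% for CPP2 and 26.6% for THX20. Of the 218 ends of intervals of 100 kb or more, 35.8% (29.7 to 42.3%) were CPP2 and 32.1% (26.3 to 38.6%) THX20. For intervals from 40 to under 60 kb the CPP2 share had been 47.5% (45.8 to 49.1%), and the THX20 interval had run from 21.7 to 24.5%. For both factors the Wilson intervals of these classes do not overlap, but the difference was not tested, and the classes were chosen after the lengths had been seen.

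**Figure D5:**
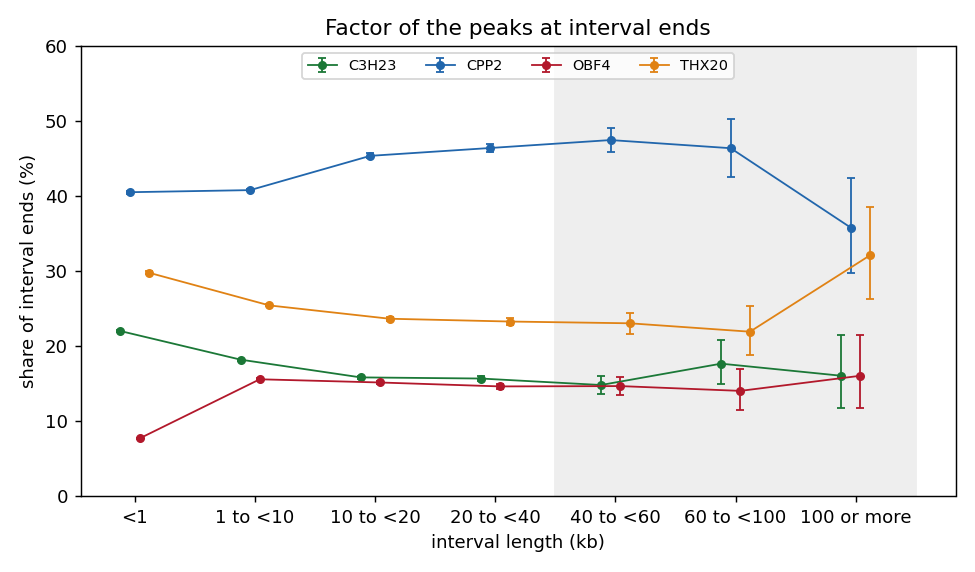
Share of interval ends in percent that belong to each factor, by interval length in kb, with 95% Wilson intervals; the shaded classes are the long intervals. The shares are level from 10 to under 100 kb, and at 100 kb or more CPP2 stands at 35.8% and THX20 at 32.1%.

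Both ends belonged to the same factor in 713 intervals (32.8%), most often CPP2 (482 intervals). For intervals from 40 to under 60 kb this share was 32.2%, the same as the 32.2% that the factor shares would give if the ends were independent. At 100 kb or more it was 36.7%, against 28.3%, but only 109 intervals are in that class and the difference was not tested. In intervals under 1 kb it was 51.9% against 30.7%.

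The strength of the flanking peaks was read from the authors' signal, whose scale is not stated and which was used only within a list. Flanking peaks were slightly weaker than their lists for C3H23, OBF4 and THX20. The median was 34 for C3H23 flanks and 36 for its list, a ratio of 0.944 (95% order-statistic interval 0.889 to 0.972). For OBF4 it was 29 against 30.8 (ratio 0.942, 0.909 to 0.974) and for THX20 30 against 32 (0.938, 0.906 to 0.969). CPP2 flanks had a median of 42 against 41, a ratio of 1.02 (0.976 to 1.07). This was not particular to long intervals: at the ends of intervals from 20 to under 40 kb the ratio was 0.917 for C3H23, 0.974 for OBF4, 0.969 for THX20 and 1.07 for CPP2.

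Weak and strong peaks both closed long intervals. The strongest 10% of the list supplied 7.22% of the C3H23 flanks, 7.84% of the OBF4 flanks, 9.71% of the THX20 flanks and 11.9% of the CPP2 flanks. The values below the lowest 10% point of the list supplied 10.98% of the C3H23 flanks (9.91% of the list), 11.9% of the OBF4 flanks (9.77%), 11.8% of the CPP2 flanks (9.99%) and 7.43% of the THX20 flanks (8.45%). CPP2 flanks thus held more of both extremes than their list. The strongest flanking peak of THX20 lay on chromosome 3 from 86952320 to 86952520, with a signal of 518.7, the 75th highest of its list on the chromosomes, and closed an interval of 70.4 kb. That of CPP2 (chromosome 6 from 6095720 to 6095920, signal 420, the 31st highest) opened an interval of 41.1 kb. That of C3H23 (chromosome 2 from 221967568 to 221967768, signal 333, the 42nd highest) opened one of 54.7 kb, inside the fullest 5 Mb bin named above. That of OBF4 (chromosome 2 from 122140080 to 122140280, signal 167.2, the 534th highest) closed one of 43.7 kb.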

How the data were processed

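The submitters' processing notes name Trimmomatic 0.39 and Bowtie2 2.4.1 for trimming and alignment; caller, control library and build were not given in the sources used here. Each deposited list has 10 columns and peaks of 201 bp, 1 list per library. Column 7 is the deposited signal, used within lists only. Column 8, the deposited −log10 p-value, is an alternative to it. Column 5, the deposited score, was not used. Sample titles gave the groups.

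The summit was the start column plus 100. Chromosome length was taken as the end of the last peak in the pool. Numbers under random placement come from closed formulas, without simulation or p-value; the calculation was tested on simulated data. For joined clusters, distances past 1 kb were taken as exponential. Intervals are 95% Wilson, exact binomial, Poisson or order-statistic intervals, and neighbouring peaks are not independent. Named intervals are the 10 longest, the longest of each chromosome, those nearest the limit, the 5 largest runs and those at the strongest flanking peaks. The intervals, rules and lists were chosen with earlier results of these data known, and the length classes, the islands, the 1 list against 3 comparison, the windows beside all intervals and the 5 Mb bins after seeing the data. Depth is unknown. Python 3.11.15, numpy 2.4.6, pandas 2.3.3, scipy 1.17.1 and matplotlib 3.10.9 were used.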

Additional observations from a re-analysis of the deposited data

Results flagged for a closer look

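The unplaced contigs were left out of the comparisons above, and they held long intervals too: 19 intervals of 40 kb or more, 0.479% of the 3964 intervals between adjacent summits on contigs. They lay on 16 of 180 contigs, with a median of 46.8 kb and a longest of 52.4 kb. A contig cannot hold an interval longer than itself, so these lengths are not set against those of the chromosomes.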

How the results depend on the processing

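No paired analysis was possible because there was 1 library per factor, nor was there a replicate to leave out. The number of long intervals was 6035 at 30000 bp or more, 888 at 50000 bp and 426 at 60000 bp, by construction. It was 2139 between facing peak edges, 3091 without C3H23, 8453 without CPP2, 3219 without OBF4, 4040 without THX20, and 7974 in the stronger 50% of each list by signal, since shorter lists leave wider spacing. The ratio to uniform placement stayed above 1 under every alternative run. It was 6.31 and 4.78 with the density of 5 and 1 Mb bins, 2.35 with summits within 1 kb joined, and 4.19, 25.8 and 79.8 at 30000, 50000 and 60000 bp. Added after seeing the data, it was 4.13 without C3H23, 2.91 without CPP2, 6.37 without OBF4, 3.40 without THX20 and 1.74 in the stronger 50%. The central to outer ratio was 0.731 at 30000 bp and 0.525 at 50000 bp, and the share in runs 9.55% at 20000 bp apart and 27.2% at 100000 bp. With −log10 p in place of signal, the flank to list ratio was 0.874 for C3H23 and 0.893 for THX20; the cause was not tested. The shares of flanking peaks by factor moved within their counting intervals. So did the pooled density in the first 10 kb beside the intervals when windows with another long interval were left out. Further out the pooled density moved past its counting interval: from 190 to 200 kb outward it rose from 174 to 186 peaks per Mb. The windows past the first 10 kb are not among the 45 values counted next. Of 45 values under alternatives, 23 moved by more than 1.5 times (the number of intervals) or past their counting interval (all others), and 0 changed direction. A change of direction could be assigned only where the main counting interval excludes a reference value. It could not be assigned to the number of intervals, the share in runs or the CPP2 signal ratio. Unknown read depth limits every statement on an empty stretch: binding below the lists' limit would not be seen.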
